A study of Mus musculus with 6 samples.

Results

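NF-kB is a family of dimeric transcription factors named for the kappa light chain enhancer of B cells, where it was found. The deposited table was searched for the genes of its 5 subunits (Rela, Relb, Rel, Nfkb1 and Nfkb2) and of 5 inhibitors (Nfkbia, Nfkbib, Nfkbie, Nfkbiz and Tnfaip3), each by its exact symbol. All 10 were found, each in a row of its own, among 21307 rows, and all 10 passed the filter on low values that left 10856 rows to compare. The rule uses gene names alone and no measured value, though the members were chosen with earlier results of these data known.

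In resting cells, inhibitor proteins of the IkB family hold NF-kB dimers in the cytoplasm. In the canonical route, a kinase complex marks IkB for destruction and dimers of RelA or c-Rel with p50 enter the nucleus. In the alternative route, the kinase NIK triggers the trimming of the Nfkb2 product p100 to p52, which acts with RelB. Several genes of the family are themselves textbook targets of NF-kB, so the pathway sets its own inhibitors and some of its own subunits. In developing B cells the pathway serves survival and light chain gene rearrangement.

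The libraries came from bone marrow B cells of Eµ-myc;Prmt5F/FCreER mice on a C57BL/6 x 129S1/SvlmJ background, 6 to 8 weeks old and without overt tumours, cultured with interleukin 7 at 5 ng/µl. The Eµ-myc transgene expresses MYC from an immunoglobulin enhancer, and 4-hydroxytamoxifen (4-OHT) activates the Cre recombinase that deletes Prmt5, an arginine methyltransferase gene. The 3 libraries of the 4-OHT group were exposed to 50 nM 4-OHT for 24 h and the 3 of the ethanol group to the solvent, and both groups were cultured for 5 more days. Both groups carry the same transgene, floxed alleles and Cre, so exposure to 4-OHT and loss of Prmt5 cannot be told apart. The sample titles (WT and PT) and the design text speak of wild-type and pre-tumoral mice, whereas the sample characteristics and the table give ethanol and 4-OHT. The latter are used here, and both readings divide the libraries alike.

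The table holds 1 FPKM value (mapped fragments scaled to transcript length and library size) per gene and condition. No difference below therefore has a replicate error, a test or a known read depth, and each is described by its size. Ratios are taken on the log2(FPKM + 1) scale, 4-OHT minus ethanol, which understates the change of low genes. Where a pair of levels is given, the ethanol value comes first. Prmt5, the deleted gene, stood at 41.6 (ethanol) and 5.71 FPKM (4-OHT). Over all compared genes the median of these ratios was -0.07. Markers of pro-B and pre-B cells, led by Vpreb3 (509 and 242 FPKM), were present in both conditions, and all 18 were lower in 4-OHT, with a median log2 ratio of -0.97. All 11 compared monocyte and macrophage markers (of 14) were higher, with a median of 1.15. Of all compared genes, 44.9% were higher and 55.1% lower. The lysozyme gene Lyz2, at 3835 FPKM in ethanol and 0 in 4-OHT, was not compared, and a value of 0 can be a failed estimate. In these bulk samples, fewer cells of a type and less RNA per cell cannot be told apart.

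Promoter sequences show which of these genes carry NF-kB motifs next to their start. RefSeq promoters on GRCm38.p6 were matched for 7 of the 10 genes; Relb, Nfkb1 and Nfkbiz were not matched. For each gene the 250 bases before its most upstream listed start were searched on both strands for the 10-base kB consensus motif. It was found in 5 of the 7 (Nfkb2, Rel, Nfkbia, Nfkbie and Tnfaip3) and in 1010 of the 27025 genes with a promoter, or 3.74%. The looser pattern GGGNNNNNCC, of which the consensus is a stricter form, was found in 6 of the 7 and in 45.4% of all. Among the 7780 compared genes with a promoter, 4.37% held the consensus and 62.5% the looser pattern. Rela held only the looser pattern, and Nfkbib held neither. A match describes the letters and does not show that a protein is bound there.

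The matched sites are shown because they lie in genes whose levels differed widely in this comparison, from Nfkb2, with the highest ratio of the 10, to Rel, with the lowest. Each stretch runs 5′ to 3′ on the strand of the gene, with the consensus match in capitals. Where 2 matches overlap, as in Nfkb2 and Rel, the capitals span both.
Nfkb2, chr19:46304689-46304718, plus strand: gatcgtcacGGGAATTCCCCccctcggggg
Nfkbie, chr17:45555584-45555613, plus strand: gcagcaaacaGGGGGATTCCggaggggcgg
Tnfaip3, upstream site, chr10:19015516-19015545, minus strand: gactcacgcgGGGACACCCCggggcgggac
Tnfaip3, site at the start, chr10:19015411-19015440, minus strand: gtgactggaatttccatcGGAAATCCCCct
Nfkb2 has a further match, GGGGCTTTCC, from -11 to -2 relative to the start. GENCODE places an exon of another Nfkb2 transcript, which begins further upstream, across the whole Nfkb2 window, as well as one of a neighbouring gene model. Annotated exons of the same gene also cover 110 of the 250 bases of the Tnfaip3 window and 58 of the Rela window. The Tnfaip3 stretches shown hold no exon bases.

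The promoters of Nfkbia and Rel are shown at greater length because they pair a gene that was higher in 4-OHT with one that was not, each with a match. The Nfkbia match lies from -29 to -20 and the Rel match from -92 to -82.
Nfkbia, chr12:55492648-55492897, minus strand: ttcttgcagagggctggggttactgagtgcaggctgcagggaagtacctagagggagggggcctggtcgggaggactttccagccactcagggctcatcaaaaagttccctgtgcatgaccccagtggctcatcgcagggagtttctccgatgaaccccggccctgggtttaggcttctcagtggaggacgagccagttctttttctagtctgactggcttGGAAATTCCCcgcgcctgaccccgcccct
Rel, chr11:23770971-23771219, minus strand: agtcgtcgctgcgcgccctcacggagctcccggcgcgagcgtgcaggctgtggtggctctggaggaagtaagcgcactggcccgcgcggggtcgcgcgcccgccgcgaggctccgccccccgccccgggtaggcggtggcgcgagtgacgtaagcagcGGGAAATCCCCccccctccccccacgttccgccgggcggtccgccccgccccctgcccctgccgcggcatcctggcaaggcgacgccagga
The Rel stretch ends at -2, since GENCODE annotates an exon at the last base.

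Of the 10 genes, 9 were higher in 4-OHT and 1, Rel, was lower. Among all compared genes, 44.9% were higher and 55.1% lower. In all, 4 genes, Nfkb2, Relb, Tnfaip3 and Nfkbia, were at least 1.5-fold higher, against 19.5% of all compared genes, and none was 1.5-fold lower, against 12.8%. Nfkb2 alone was at least 2-fold higher, and that share, 1 of 10, is that of all compared genes, 10.4%; none was 2-fold lower, against 2.58%. The median log2 ratio was 0.45 for the 10 genes, 0.46 for the subunits and 0.45 for the inhibitors. In the same comparison the neutrophil markers (12 of 12 at least 2-fold higher, median 3.07) and the compared monocyte and macrophage markers were also higher. The part of these markers' cells in the NF-kB ratios was not tested.

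**Figure D1:**
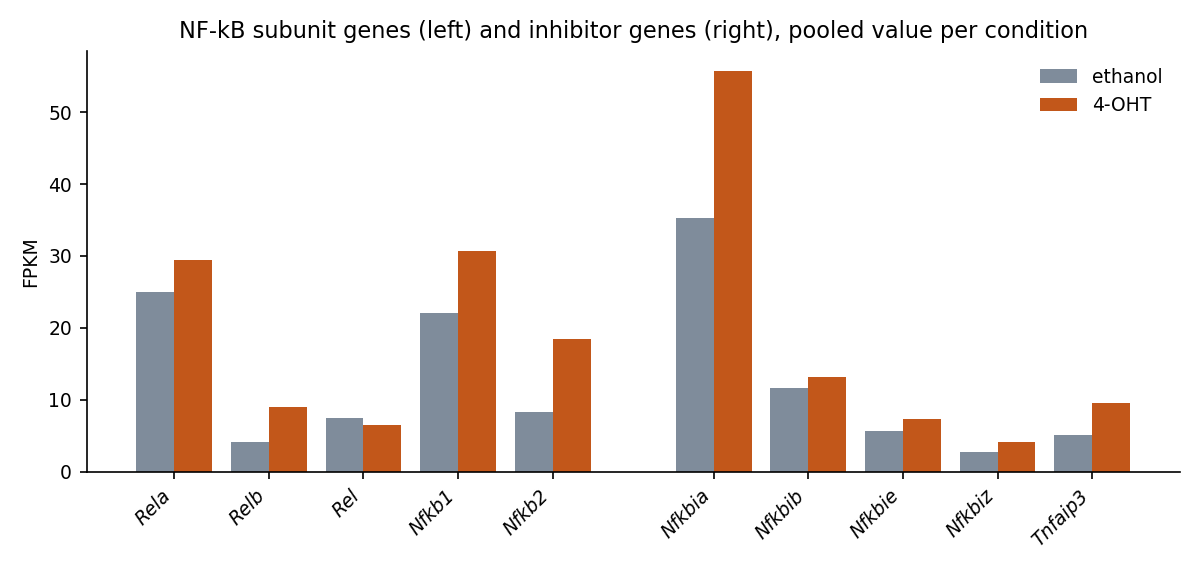
Level of each NF-kB gene in FPKM, 1 pooled value per condition, with bars from 0 (grey, ethanol; orange, 4-OHT). Nfkbia is the highest gene in both conditions, and Rel is the one gene whose 4-OHT bar is the shorter.

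Among the subunits, Rela and Nfkb1 were the most abundant. Rela encodes RelA (p65), the main activating partner of the canonical dimer, and stood at 25.03 (ethanol) and 29.4 FPKM (4-OHT), a log2 ratio of 0.22. Nfkb1, whose product p105 is the precursor of p50, stood at 22.1 and 30.7 FPKM (log2 ratio 0.46). Their order thus differed between conditions: Nfkb1 was at 0.884 of the Rela level in ethanol and at 1.05 of it in 4-OHT. With 1 value per condition, whether such neighbours differ beyond their spread cannot be said. On mm9, the build of the table, the Rela locus is on chromosome 19 from 5637490 to 5648130 and the Nfkb1 locus on chromosome 3 from 135247619 to 135354511.

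Rel, which encodes c-Rel, the activating subunit most characteristic of lymphocytes, stood at 7.43 (ethanol) and 6.48 FPKM (4-OHT) (chromosome 11, 23641729 to 23670970). Its log2 ratio of -0.17 is 1.13-fold lower. The ratio was -0.21 under quantile normalization and -0.10 with centring on the median, the only settings that could change its direction. Of compared genes, 42.1% had a lower ratio, so Rel lay near the middle of the table.

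Relb and Nfkb2, the pair of the alternative route, had the highest ratios of the family. Relb, which encodes the activating partner of p52, stood at 4.11 (ethanol) and 9.03 FPKM (4-OHT), a log2 ratio of 0.97 (chromosome 7, 20191571 to 20214787). Nfkb2, which encodes p100, an inhibitor until it is trimmed to p52, stood at 8.35 and 18.5 FPKM, a log2 ratio of 1.06. The proportion of the pair was thus nearly the same in both conditions: Nfkb2 stood at 2.03 times the Relb level in ethanol and at 2.05 times in 4-OHT. Of all compared genes, 90.8% had a ratio below that of Nfkb2 and 89.1% below that of Relb. The Nfkb2 locus of the table (chromosome 19, 46379227 to 46401646) also holds the neighbouring gene Psd, listed separately at 0.41 and 0.93 FPKM.

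**Figure D2:**
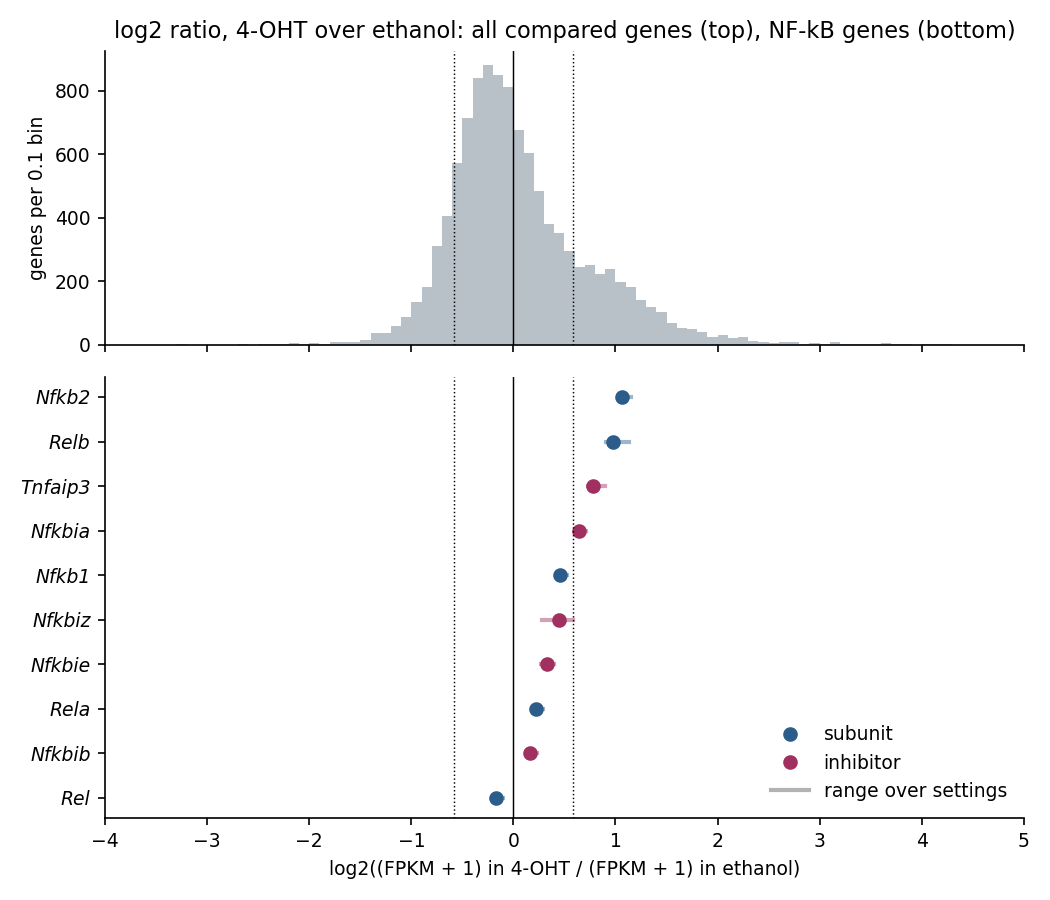
Top, number of compared genes by log2 ratio of 4-OHT over ethanol, in bins 0.1 wide; bottom, the ratio of each NF-kB gene (point) with its range over all settings tried (bar). Dotted lines mark 1.5-fold; Nfkb2, Relb, Tnfaip3 and Nfkbia lie beyond the upper one.

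Because FPKM is scaled to length, levels of the 5 subunit genes can be added. Their sum was 67.0 (ethanol) and 94.1 FPKM (4-OHT), a log2 ratio of 0.48. Rela, Rel and Nfkb1, of the canonical route, summed to 54.6 and 66.6 FPKM. Relb and Nfkb2 summed to 12.5 and 27.5 FPKM. The alternative pair was therefore at 0.228 of the canonical sum in ethanol and 0.413 of it in 4-OHT. Nfkb2 went from 12.5% to 19.7% of all subunit FPKM and Relb from 6.14% to 9.59%. Rela went from 37.3% to 31.2% and Rel from 11.1% to 6.89%, while Nfkb1 was at 33.0% and 32.6%. Relb was below Rel in ethanol, at 0.554 of its level, and above it in 4-OHT, at 1.39 times. A share of RNA in mixed cells does not give the makeup of dimers in any cell, and none of these values measures protein.

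**Figure D3:**
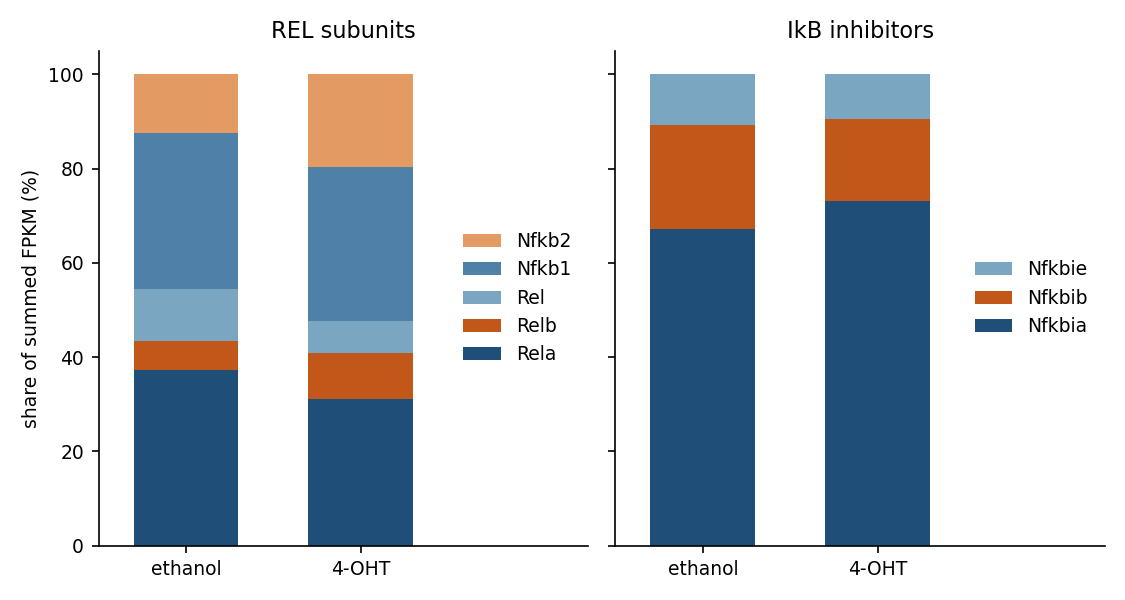
Share of each gene in the summed FPKM of the REL subunits (left) and of the IkB inhibitors (right), in percent, for ethanol and 4-OHT. The Nfkb2 and Relb parts are wider in 4-OHT, as is that of Nfkbia among the inhibitors.

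The 3 genes of cytoplasmic IkB proteins were all higher in 4-OHT, by different amounts. Nfkbia encodes IkB alpha, which is resynthesized after NF-kB activation and ends the response, and it was the most abundant of the 10 genes, at 35.3 (ethanol) and 55.8 FPKM (4-OHT) (log2 ratio 0.65; chromosome 12, 56590396 to 56593634). Nfkbib encodes IkB beta, whose gene responds less to NF-kB, and stood at 11.6 and 13.1 FPKM, a log2 ratio of 0.16. Its locus (chromosome 7, 29541193 to 29551543) is shared with the gene model Gm6537, listed separately at 0.007 and 0.029 FPKM. Nfkbib is the gene of the 7 searched with neither motif, and an annotated exon of Sirt2 covers 133 of the 250 bases searched. Rel and Nfkbie, each with a match, had log2 ratios of -0.17 and 0.33. A link between motif and ratio was not tested in these genes. Nfkbie encodes IkB epsilon, a slower feedback inhibitor, and stood at 5.61 and 7.28 FPKM, a log2 ratio of 0.33 (chromosome 17, 45692665 to 45700117).

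Nfkbia was at 3.04 times the Nfkbib level in ethanol and at 4.25 times in 4-OHT. It made up 67.2% and 73.2% of the IkB sum, which was 52.5 (ethanol) and 76.2 FPKM (4-OHT) (log2 ratio 0.53). Inhibitors and subunits were thus higher together: the IkB sum was 0.784 of the subunit sum in ethanol and 0.809 of it in 4-OHT.

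Nfkbiz and Tnfaip3 act at other steps. Nfkbiz encodes IkB zeta, a nuclear cofactor that helps p50 switch on secondary response genes, and it had the lowest level of the 10, at 2.76 (ethanol) and 4.14 FPKM (4-OHT) (chromosome 16, 55811490 to 55838754). Its log2 ratio of 0.45 was the least settled, from 0.28 under quantile normalization to 0.59 in the authors' deposited table, which uses no pseudocount and puts it past 1.5-fold. Tnfaip3 encodes a ubiquitin-editing enzyme that shuts off signalling from receptors to the kinase complex, and stood at 5.17 and 9.61 FPKM (log2 ratio 0.78; chromosome 10, 18720717 to 18735216). It was the highest ratio among the inhibitors, and 85.1% of compared genes had a lower one. Tnfaip3 stood below Nfkbie in ethanol, at 0.921 of its level, and above it in 4-OHT, at 1.32 times.

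The rest of the pathway was described from lists chosen with earlier results of these data known. Of 46 genes of kinases, adaptors and ubiquitin enzymes, 24 were higher and 22 lower, with a median log2 ratio of 0.01; 10 were at least 1.5-fold higher and none 1.5-fold lower. Of all compared genes, 19.5% were at least 1.5-fold higher and 12.8% at least 1.5-fold lower, so the 21.7% of the list that was higher is near the share of all genes, whereas none was as far lower. The share at least 1.5-fold higher was 9.09% of the kinase genes, 16.7% of the ubiquitin enzyme genes and 35.3% of the adaptor genes. Among the 11 kinase genes (median 0.01), Tab2, an adaptor subunit of the TAK1 kinase and the most abundant, stood at 41.1 and 36.1 FPKM in ethanol and 4-OHT. Ikbkb, the kinase that marks IkB in the canonical route, stood at 29.1 and 30.1 FPKM. Ikbke, a related kinase gene that inflammatory signals induce, was the one kinase gene past 1.5-fold, at 9.60 and 20.4 FPKM (log2 ratio 1.01). Map3k7, the TAK1 gene, was lowest, at 13.9 and 11.3 FPKM.

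The NIK route was also compared at its upstream genes, named after their values were seen. Map3k14, the NIK gene, stood at 4.89 (ethanol) and 5.15 FPKM (4-OHT), and Chuk, which encodes the kinase IKK alpha, at 19.0 and 16.9 FPKM. Traf3, whose product keeps NIK low, stood at 8.81 and 8.51 FPKM. These RNA values were near equal between conditions. They do not measure NIK protein or its activity, and whether the route differed between conditions was not tested. Of the receptor genes named here for the route, Tnfrsf13c, the BAFF receptor gene of B cells, was lower in 4-OHT, at 11.3 and 4.52 FPKM. Higher were Ltbr, the lymphotoxin beta receptor gene of stromal and myeloid cells (7.44 and 24.2 FPKM), and Tnfrsf11a (1.63 and 3.49 FPKM). Cd40, at 0.56 and 0.90 FPKM, was too low to be compared.

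Among the 17 adaptor genes, 6 were at least 1.5-fold higher and none 1.5-fold lower, and the median log2 ratio was 0.10. That median was 0.29 without merged rows, which leaves out Irak1, and 0.03 with a minimum mean of 5 FPKM. Myd88, the adaptor of Toll-like and interleukin 1 receptors, stood at 17.8 and 34.7 FPKM, and Card9, an adaptor of myeloid cells, at 25.5 and 37.0 FPKM. Irak2, a kinase of the same complex as Myd88, had the highest ratio, 1.05, and Prkcb, the protein kinase C gene of antigen receptor signalling, the lowest, -0.46. Among the 18 genes of ubiquitin enzymes and their partners (median 0.00), 3 were at least 1.5-fold higher. Tax1bp1 and Rnf11, partners of the Tnfaip3 product, had log2 ratios of 0.37 and 0.75, and Rbck1, a subunit of the linear ubiquitin ligase, had the lowest, -0.50.

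Among the 8 genes of other IkB proteins and nuclear cofactors the median was -0.11. Bcl3, a nuclear IkB protein gene whose product binds p50 and p52 dimers, stood at 6.79 (ethanol) and 22.8 FPKM (4-OHT), and its log2 ratio of 1.61 lay above those of all 10 members. Commd1, a gene of a protein that promotes RelA turnover, was at 51.9 and 44.1 FPKM, and Nkrf, a repressor gene, was lowest, at 10.04 and 6.25 FPKM.

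The medians of the receptor, ligand and target lists were above 0, though some receptor and target genes were lower. At least 1.5-fold higher were 53.8% of compared receptor, 87.5% of ligand and 68.8% of target genes, against 19.5% of all compared genes. At least 1.5-fold lower were 12.8% of all compared genes. Of 13 compared receptor genes (3 of 16 did not pass the filter), 8 were higher and 5 lower, with 7 at least 1.5-fold higher, 2 at least 1.5-fold lower and a median log2 ratio of 0.77. Tlr2, a receptor gene for bacterial lipoproteins, had the highest ratio, 1.71, and Tnfrsf13c the lowest, -1.16. The tumour necrosis factor receptor genes Tnfrsf1a (19.8 and 62.8 FPKM) and Tnfrsf1b (33.7 and 64.6 FPKM) were the most abundant. The receptor median was 0.54 with no minimum level and 0.52 under quantile normalization, both under 1.5-fold. All 8 compared ligand genes (of 12) were higher, and 7 passed 1.5-fold; their median was 1.08. Ltb, a lymphotoxin gene, stood at 8.38 and 24.1 FPKM, and Tnfsf14, another ligand of its receptor, had the highest ratio, 1.47. Tnfsf13, the APRIL gene, in a row merged with Tnfsf12 and BC096441, stood at 17.2 and 40.6 FPKM, and Tnfsf11, the RANK ligand gene, had the lowest ratio, 0.07.

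The target list held 35 genes, chosen with earlier results of these data known, and 32 of them were compared. In 4-OHT, 28 stood above their ethanol level and 4 below it, against 44.9% and 55.1% of all compared genes. Past 1.5-fold were 22 upward and 2 downward, against 19.5% and 12.8% of all compared genes. The list had a median log2 ratio of 0.94. The most abundant was Fth1, the ferritin heavy chain gene, at 3078 and 6403 FPKM. Mmp9, a gelatinase gene that neutrophils and macrophages express strongly, had the highest ratio, 2.09, at 30.3 and 132 FPKM. The lowest was that of Bcl2l1, whose product BCL-XL protects from apoptosis, at -0.81 (82.3 and 46.5 FPKM). Irf4, the other target gene at least 1.5-fold lower, stood at 44.3 and 25.9 FPKM, a log2 ratio of -0.75. Many of these target genes are also expressed by myeloid or stromal cells.

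**Figure D4:**
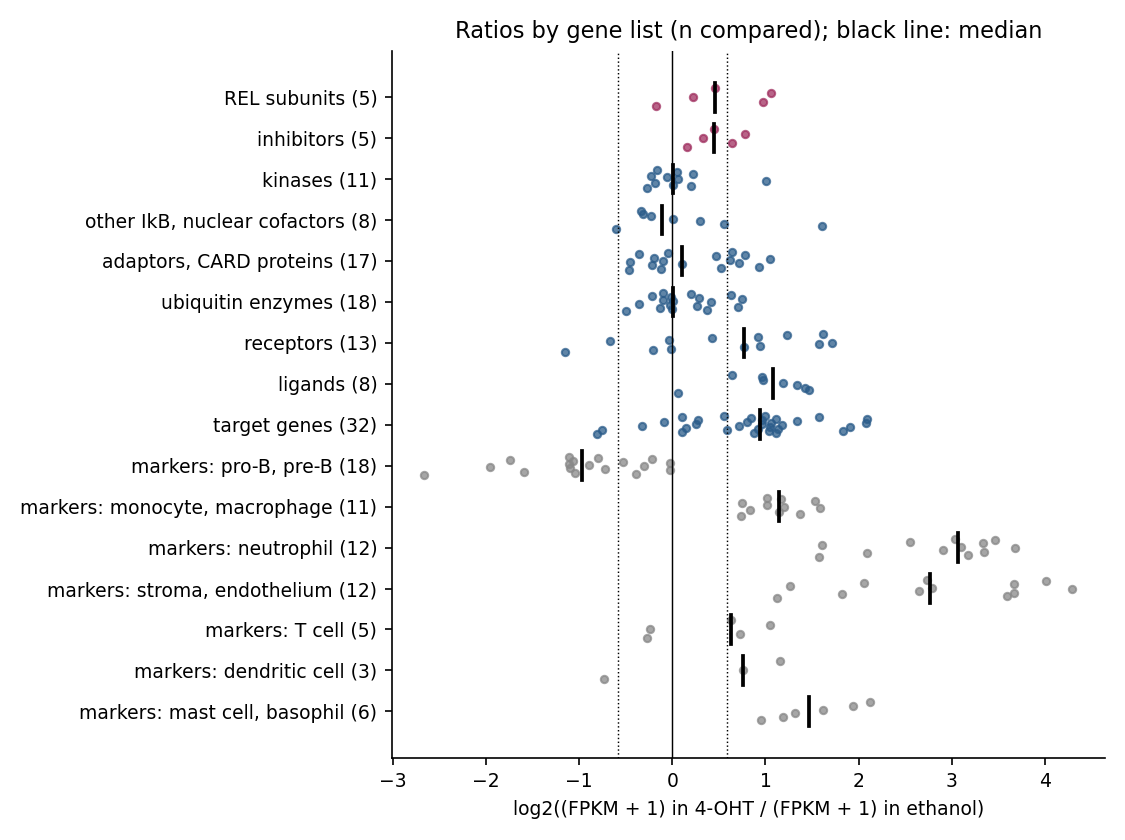
Log2 ratio of 4-OHT over ethanol for each compared gene (points) by list, with the number compared in brackets and the median as a black line; dotted lines mark 1.5-fold. The medians of the NF-kB subunits and inhibitors (red) lie above those of the kinase, adaptor and ubiquitin lists, near 0. They lie below those of the ligand and target lists, near 1, and the points of the lists overlap.

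Marker genes of other cell types are given beside these groups because NF-kB genes are expressed in all of them. The summed level of the pro-B and pre-B markers was 2944 (ethanol) and 1357 FPKM (4-OHT). That of the monocyte and macrophage markers was 761 and 1704 FPKM, with Cd68 at 146 and 324 FPKM. This sum leaves out the lysozyme gene Lyz2, the 1 marker listed at 0 in 4-OHT, whose ethanol value is 3835 FPKM. The neutrophil markers found in the table (12 of 14) summed to 553 and 4179 FPKM, the stromal and endothelial markers to 50.3 and 594 FPKM, and the mast cell, basophil and eosinophil markers to 91.0 and 327 FPKM. T cell markers summed to 18.7 and 22.1 FPKM, most of it from the kinase gene Lck, which was lower in 4-OHT (13.6 and 11.1 FPKM). The receptor subunit genes Cd3d (0.63 and 1.70 FPKM), Cd3e (0.44 and 1.44 FPKM) and Cd3g (0.70 and 2.52 FPKM) were low in both conditions and higher in 4-OHT. Dendritic cell markers were at 59.3 and 105 FPKM, most of it from Bst2 (43.8 and 74.6 FPKM) and Itgax (11.4 and 26.8 FPKM). Flt3 was lower in 4-OHT (3.20 and 1.53 FPKM), and the other 5 dendritic markers were too low to be compared. The 10 NF-kB genes together were at 127 and 184 FPKM, a log2 ratio of summed levels of 0.53. That of the pro-B and pre-B markers was -1.12 and that of the monocyte and macrophage markers 1.16. A place between these values is common: the lower and upper quartiles of all compared genes, -0.39 and 0.40, also lay between them. The part of these markers' cells in the NF-kB values was not tested.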

How the data were processed

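RNA of 6 libraries (3 per condition) was sequenced. The submitters' processing notes name TopHat2 2.0.9, Cufflinks 2.1.1, CASAVA and the genome build mm9. The authors deposited 1 FPKM value per gene and condition; the sources used here do not say how libraries were combined. The authors' log2 fold changes, also deposited, match the FPKM ratio within 0.01 in all 15756 rows above 0 in both conditions. With no library columns, the planned limma fits were not run.

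Rows were compared when both values were above 0 and their mean was at least 1 FPKM. Ratios used a pseudocount of 1; the script that computes them was checked on simulated data, and no ratio has a test. Thresholds were 1.5-fold and 2-fold. The members and lists were chosen with earlier results of these data known. Named by rule were all members, Prmt5 and the highest and lowest ratio of each pathway list. So were the 2 most abundant genes of each list (for marker lists, examples of these). Outside this rule, genes of the NIK route were named after their values were seen. Others outside it include Irak1, Irf4, Lyz2, Cd3d, Cd3e and Flt3. Myc, which the rule also names, stood at 402 and 213 FPKM. A value of 0 can be a failed estimate.

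Locus starts are counted from 0 in the table (6341 of 18851 rows then equal the RefSeq gene length, against 437 counted from 1), so 1 was added. Promoters came from RefSeq on GRCm38.p6, and no coordinate was moved between builds. Protein sequences were not analysed here. Scripts ran in Python 3.11.15 with pandas 2.3.3, numpy 2.4.6 and, for plots, matplotlib 3.10.9.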

Additional observations from a re-analysis of the deposited data

How the results depend on the processing

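The 8 alternative settings were pseudocounts of 0.1 and 0.5, a minimum mean of 5 FPKM or none, centring on the median, quantile normalization, the authors' deposited fold changes, and leaving out merged rows. Each of the 10 genes kept its direction under all settings in which it was compared (Nfkbiz has a mean under 5 FPKM). Only centring and quantile normalization could change a direction, since the other settings use the same pair of values per gene. None of the settings measures replicate error. Of the 10, 4 were past 1.5-fold upward, or 5, with Nfkbiz, by the authors' deposited fold changes. The count at least 2-fold higher was 1, and 2, with Relb, with a pseudocount of 0.1 or 0.5, with centring, and by the authors' deposited fold changes. Counts over all 10856 compared genes rose in the same settings. Those at least 2-fold higher were 1124 in the main setting, 1499 and 1334 with these pseudocounts, 1277 with centring and 1536 by the deposited changes. Those at least 1.5-fold higher were 2121 in the main setting and 2383 by the deposited changes. The median of the 10 ran from 0.38 to 0.53. The log2 ratio of the summed IkB genes, 0.53, was 0.60 after centring, past 1.5-fold. The receptor median, 0.77, was 0.54 with no minimum and 0.52 under quantile normalization. The adaptor median, 0.10, ran from 0.03 to 0.29. The kinase, ubiquitin and nuclear cofactor medians lay on both sides of 0. Quantile normalization put the median of all genes at -0.11. No paired analysis was possible because each condition has a single combined value, and leaving out a library could not be done for the same reason. Depth is unknown, and genes near the minimum, such as Nfkbiz, are the least precise.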

Other observations

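All compared genes can be sorted by the same promoter motif. Of the 7780 compared genes with a RefSeq promoter, 340 held the kB consensus in the 250 bases before the start. Their median log2 ratio was -0.01, and 26.8% were at least 1.5-fold higher and 9.71% at least 1.5-fold lower in 4-OHT. Of the 7440 without a match, the median was -0.07, and 19.1% were at least 1.5-fold higher and 12.9% at least 1.5-fold lower. The 340 include Nfkb2, Rel, Nfkbia, Nfkbie and Tnfaip3. No test was made of this difference.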
